A study of Homo sapiens with 12 samples.

Results

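The data described here concern 10 human genes for RNA-binding or splicing-related proteins, and the way their own transcripts were spliced: TIAL1, TIA1, RBM39, RBM5, RBM10, RSRP1, THOC2, FNBP4, TRA2A and TRA2B. TIAL1, RBM39 and RSRP1 were selected on the PSI of these same samples (the share that includes an exon or retains an intron, estimated from reads). It shifted between the groups, so the values of these genes are given as a description without a test. The other 7 genes were taken as relatives by family or role, and their gene counts and splicing events were tested. The 10 genes are 10 of the 57820 gene IDs counted, and 202 of the 56092 listed splicing events lie in them. All 10 genes were expressed enough to be fitted among 16999 genes, and 162 of their 202 events passed the minimum on counts, 90 of them in the relatives. Both listed events of RBM10 were too thinly covered, so that gene is described by its gene count alone.

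Cells of the AsPC-1 line, an established line of human pancreatic cancer, received either an siRNA that targets ARNT (siARNT) or a scrambled one (siControl), were split a day later, and were kept at 21% O2 (normoxia) or at 1% O2 for 24 h (hypoxia) until harvest 48 h after transfection. This gave 4 groups of 3 samples (A, B and C), namely siControl and siARNT cells in normoxia and siControl and siARNT cells in hypoxia. ARNT encodes the partner that the oxygen-regulated HIF alpha subunits need in order to act on DNA, so the design asks which hypoxia changes depend on it. All groups passed through transfection and come from a single cell line, and 1 divided well may have supplied both the normoxia and the hypoxia sample of an siRNA and letter. The p-values below therefore measure the spread between these samples.

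Proteins of this kind bind RNA next to splice sites and decide whether an exon or intron is kept. RBM39 resembles the U2AF subunit that recognises the 3′ splice site, RBM5 and RBM10 are paralogs that act on the early spliceosome, TIA1 and TIAL1 bind U-rich RNA behind weak 5′ splice sites and also gather in stress granules, and TRA2A and TRA2B bind GAA-rich exon sequence. THOC2 is the scaffold of the THO complex, which couples transcription to mRNA export, FNBP4 is a WW-domain protein that binds proline-rich partners, and RSRP1 is an arginine- and serine-rich protein whose role is less well described. Many genes of such proteins hold a so-called poison exon, which carries an in-frame stop codon, so that a transcript with the exon can be degraded by nonsense-mediated decay. Retained introns can likewise keep a transcript from making full-length protein. The share of transcripts with such an exon or intron is known to help set the level of several of these proteins.

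The exons that the results turn on carry an annotated stop codon in GENCODE 29. Each line shows the bases up to that stop on the RNA strand, 5′ to 3′ and written as DNA from the GENCODE 29 transcripts (GRCh38), with the stop codon in capitals.
RSRP1, 45-nt exon, chr1:25244490-25244498, minus strand: aaatcaTGA
RBM39, 73-nt exon, chr20:35740526-35740555, minus strand: tttgattccagtgtgaactgtcaatcaTAA
RBM39, 72-nt exon, chr20:35734215-35734244, minus strand: ctccttggaaagctctacatctccttgTGA
TIAL1, 69-nt exon, chr10:119580810-119580839, minus strand: cataagaatggacaggatcttgaaggcTAA
TIA1, 66-nt exon, chr2:70225357-70225386, minus strand: ctgaagaatggacagaattgccctggcTAA
TRA2B, 276-nt exon, chr3:185931772-185931801, minus strand: aatgagtatttgaagctcaggaataagTGA
The stop of the RBM39 73-nt exon belongs to 8 annotated transcripts of the nonsense-mediated decay class, that of the RSRP1 exon to 2, and those of the RBM39 72-nt exon, the TIAL1 exon and the TIA1 exon to 1 each. The TRA2B stop belongs to 1 transcript of that class and to 1 of another class. TIAL1 and TIA1 are paralogs, and their exons show it: the stop starts at base 35 of the exon in both, and both share the run aagaatggacag of 12 bases from base 11.

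The TRA2A and TRA2B exons are shown by their first 30 bases, because TRA2 proteins bind GAA-rich RNA and both exons hold such letters. Capitals mark GAAGAA.
TRA2B, 276-nt exon, chr3:185931823-185931852, minus strand: gttaatgttGAAGAAggaaaatgcggaagt
TRA2A, 301-nt exon, chr7:23522403-23522432, minus strand: gttaatgttcgtGAAGAAattgaagagttt
GAAGAA was found 3 times in the whole TRA2B exon and 4 times in the whole TRA2A exon on the RNA strand, overlapping matches included, and 0 times on the other strand of both. Of 50442 GENCODE 29 exons of 250 to 350 bases, 18.97% hold it at least once and 0.8% at least 3 times on the RNA strand. The match describes the letters only.

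Short introns whose retention differed between samples are shown whole, with the first 2 and last 2 bases in capitals.
THOC2, 77-nt intron, chrX:123623710-123623786, minus strand: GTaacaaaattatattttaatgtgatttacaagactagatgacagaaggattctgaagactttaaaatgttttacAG
TIAL1, 96-nt intron, chr10:119576751-119576846, minus strand: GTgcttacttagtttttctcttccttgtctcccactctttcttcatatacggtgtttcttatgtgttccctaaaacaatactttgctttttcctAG
Both start with GT and end with AG, as introns of the major class do. The event files use other coordinates than GRCh38 and name no build, so event positions below are given as the files have them, counted from 1 with both ends included. The sequences above were placed in GRCh38 by the matching layout of exons within the gene.

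The total of gene counts per sample was 38.53 to 84.34 M. ARNT had 60.7 to 72.2 CPM, counts per M of assigned reads after TMM scaling, in the 6 siControl samples and 12.8 to 16.0 CPM in the 6 siARNT samples. All 6 epithelial markers were expressed (3631 to 8103 CPM summed), while CD3E, CHGA and INS were at 0 and the leukocyte, endothelial, acinar and endocrine markers summed to at most 0.929 CPM. The 5 fibroblast markers summed to 336 to 572 CPM, of which LUM gave 335 to 571 and the other 4 at most 0.587 CPM each. That sum was 546 to 572 CPM in hypoxia siControl and 336 to 463 CPM in the other groups, and its part in the results below was not tested. Reads not assigned to a gene were 24.56 to 25.2% of a library in hypoxia siControl and 22.71 to 23.76% elsewhere. Libraries B of normoxia siControl, normoxia siARNT and hypoxia siControl departed from their group means in similar genes (Pearson r 0.74 to 0.88 across 9855 genes, which are not independent). Library C of hypoxia siARNT departed in the same way as those B libraries (r 0.85 to 0.93), and its own library B did not (r -0.17 to -0.10). In those 4 libraries TIAL1, RBM39, THOC2 and FNBP4 had the lowest CPM of their group and RBM10 the highest.

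RSRP1 (ENSG00000117616.13) showed the widest shifts of the 10 genes, and 3 of its events, which share reads, differed between the same groups. Its 45-nt exon (chr1:25570945-25570989), which carries the TGA shown above, was included in shares of 0.519, 0.541 and 0.543 in normoxia siControl, 0.442, 0.437 and 0.367 in normoxia siARNT, 0.351, 0.362 and 0.260 in hypoxia siControl, and 0.114, 0.127 and 0.136 in hypoxia siARNT. This share, the percent spliced in (PSI), compares inclusion with skipping reads. The reads of the inclusion junctions are first averaged over those junctions, and PSI is that average as a part of its total with the skipping reads. The groups did not overlap in any of the 4 comparisons between groups: inclusion was lower in hypoxia than in normoxia with either siRNA, and lower with siARNT than with siControl at either oxygen level. Over all 34093 tested junction events, all 3 samples were lower in 6.76% for hypoxia in siControl, 5.81% for hypoxia in siARNT, 8.64% for siARNT in normoxia and 6.95% for siARNT in hypoxia. The group means were 0.534 ± 0.013, 0.415 ± 0.042, 0.325 ± 0.056 and 0.126 ± 0.011 (SD, n = 3), in the same order. The change in the log2 ratio of inclusion to skipping was -1.24 (SE 0.25) for hypoxia in siControl, -2.35 (SE 0.26) for hypoxia in siARNT, -0.65 (SE 0.25) for siARNT in normoxia and -1.76 (SE 0.26) for siARNT in hypoxia. The event had a mean of 68.2 junction reads per sample.

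The same skipping junctions of RSRP1 are counted in a second event, a choice of 3′ splice site over a stretch of 865 nt (chr1:25570125-25570989) that contains the 45-nt exon. The share of the shorter exon, which leaves that stretch out, averaged 0.820 ± 0.016 in hypoxia siARNT, 0.582 ± 0.059 in hypoxia siControl, 0.498 ± 0.036 in normoxia siARNT and 0.341 ± 0.024 in normoxia siControl (SD, n = 3). It is the mirror of the exon event, and the 2 events are not independent. Just upstream of the exon in the RNA lies an intron of 651 nt (chr1:25570990-25571640), whose splice junction reads are also counted in the second event. Its retained share was 0.713, 0.634 and 0.682 in normoxia siControl, 0.736, 0.789 and 0.786 in normoxia siARNT, 0.843, 0.884 and 0.869 in hypoxia siControl, and 0.916, 0.907 and 0.909 in hypoxia siARNT. Retention thus had the same order of groups as skipping, with every group apart from the next. For retained introns the ratio is that of intron coverage to the reads of the splice junction, and its log2 change was 1.59 in hypoxia in siControl, 1.52 in hypoxia in siARNT, 0.66 for siARNT in normoxia and 0.59 for siARNT in hypoxia (SE 0.21 each). The other 3 named RSRP1 events were introns of 112, 229 and 702 nt with group means from 0.939 to 0.989.

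Some RSRP1 events that share an end with a named one were passed over in naming although their group means spread more widely than those of the 3 introns, and the events with the widest such spread are given here after their values were seen. Against a rarer skipping junction (51 reads over all samples), the same 45-nt exon was included in shares of 0.548, 0.5 and 0.733 in hypoxia siARNT, below all 9 other samples, while the means of the other groups were 0.787 to 0.845 and those groups overlapped. A 274-nt choice of 3′ splice site (chr1:25570716-25570989), which shares that junction, had a mean shorter-exon share of 0.313 ± 0.114 in hypoxia siARNT against 0.093 to 0.133 in the other groups. A 1516-nt intron over the whole stretch (chr1:25570125-25571640) was retained in 0.745 ± 0.010 in hypoxia siARNT and in 0.839 to 0.870 in the other groups. All 3 events thus set hypoxia siARNT apart, and none of them separated hypoxia from normoxia with siControl. A 591-nt choice of 3′ splice site (chr1:25570125-25570715) and an 820-nt intron (chr1:25570125-25570944) had group means of 0.835 to 0.907 and 0.941 to 0.981.

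The gene count of RSRP1 was higher in hypoxia, where exon inclusion was lower. Between the siRNAs this inverse order did not hold. With siARNT in hypoxia inclusion and count were both lower, and in normoxia inclusion was lower while counts overlapped. It was 57.6, 55.1 and 54.3 CPM in normoxia siControl, 54.7, 45.5 and 54.4 CPM in normoxia siARNT, 102, 93.9 and 93.7 CPM in hypoxia siControl, and 77.9, 74.4 and 67.7 CPM in hypoxia siARNT. All hypoxia samples lay above all normoxia samples, and within hypoxia all siARNT samples lay below all siControl samples, while in normoxia the siRNA groups overlapped. The log2 change was 0.80 (SE 0.08) for hypoxia in siControl and 0.51 (SE 0.08) in siARNT, and -0.40 (SE 0.08) for siARNT in hypoxia. RSRP1 overlaps RHD and TMEM50A on the opposite strand. The library kit keeps strand, but whether the counting used it is not given in the sources used here, so reads of such partners cannot be told apart.

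**Figure D1:**
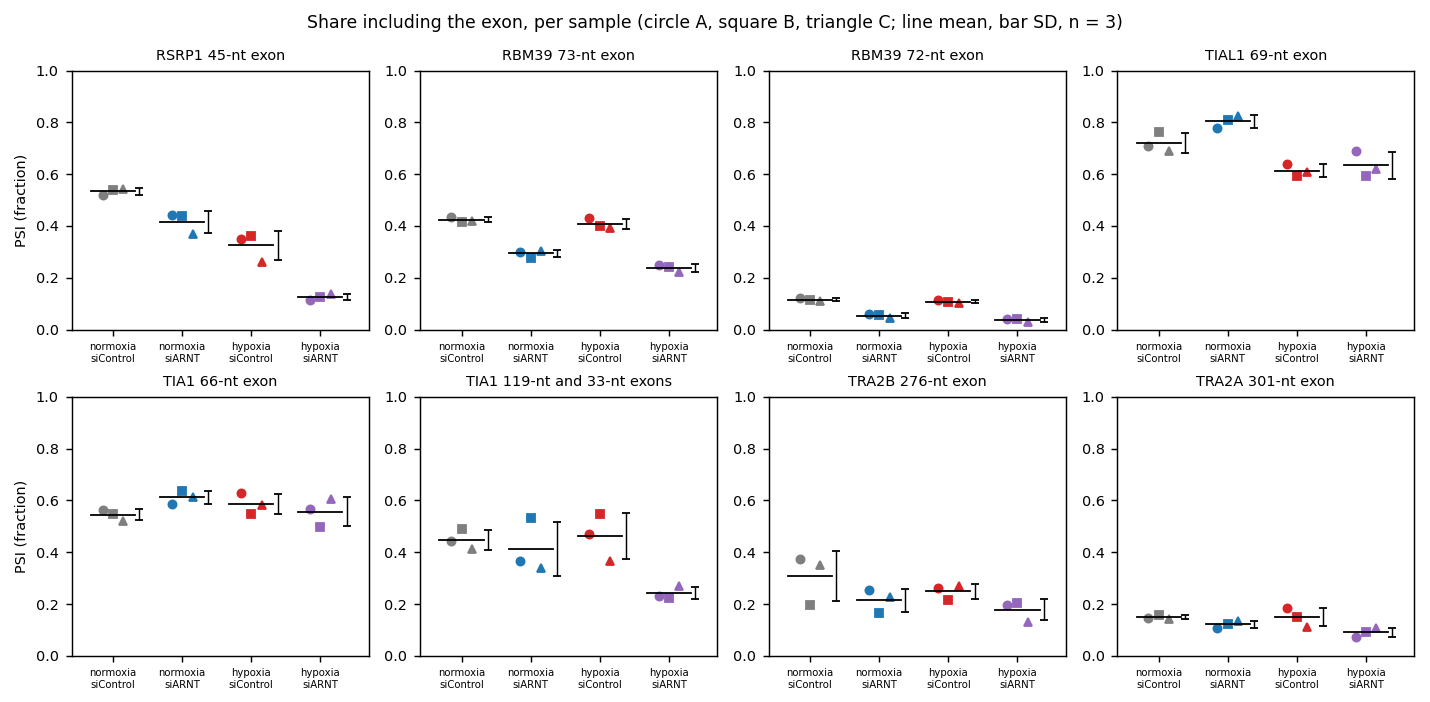
Share including the exon (PSI from reads averaged per inclusion junction, y axis from 0 to 1) for 8 exon events in each of the 12 samples, by group (x axis). Points are samples, lines group means and bars the SD (n = 3). The RSRP1 exon falls in steps from 0.534 to 0.126, both RBM39 exons are low in the siARNT groups at either oxygen level, and the TIA1 exon pair is low in hypoxia siARNT alone.

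RBM39 (ENSG00000131051.16) differed more by siRNA than by oxygen, in 2 exons that both carry a stop. Its 73-nt exon (chr20:34328447-34328519) was included in shares of 0.435, 0.417 and 0.420 in normoxia siControl and 0.298, 0.278 and 0.305 in normoxia siARNT. In hypoxia the shares were 0.430, 0.401 and 0.392 with siControl and 0.251, 0.240 and 0.222 with siARNT. All 6 siARNT samples thus lay below all 6 siControl samples. The log2 change with siARNT was -0.83 (SE 0.09) in normoxia and -1.15 (SE 0.10) in hypoxia, against -0.09 (SE 0.09) for hypoxia in siControl and -0.41 (SE 0.10) for hypoxia in siARNT. With a mean of 775 junction reads per sample this was one of the better covered events.

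The 72-nt exon of RBM39 (chr20:34322108-34322179), chosen after its values were seen, lies further downstream and was rarer. Its inclusion was 0.12, 0.113 and 0.109 in normoxia siControl, 0.060, 0.057 and 0.043 in normoxia siARNT, 0.113, 0.106 and 0.102 in hypoxia siControl, and 0.041, 0.040 and 0.029 in hypoxia siARNT. Again all siARNT samples lay below all siControl samples, with log2 changes of -1.16 (SE 0.13) in normoxia and -1.65 (SE 0.15) in hypoxia. The 1806-nt intron that surrounds the 73-nt exon (chr20:34326940-34328745) was also lower with siARNT, with retained shares of 0.417 ± 0.023 with siControl and 0.307 ± 0.032 with siARNT in normoxia, and 0.473 ± 0.012 with siControl and 0.315 ± 0.014 with siARNT in hypoxia (SD, n = 3). Reads of the 73-nt exon add to the coverage of that intron, so this is not a separate measurement. Several introns are listed inside that span, and 2 of them, on either side of the 73-nt exon, had other patterns. Both were passed over in naming because they share an end with the 1806-nt intron. The 226-nt intron (chr20:34328520-34328745) was retained in 0.417, 0.448 and 0.402 in hypoxia siARNT, 0.325, 0.309 and 0.336 in hypoxia siControl, 0.314, 0.309 and 0.287 in normoxia siARNT, and 0.293, 0.245 and 0.270 in normoxia siControl. It was thus higher with siARNT in hypoxia and higher in hypoxia with either siRNA, without overlap. The 1507-nt intron (chr20:34326940-34328446) was retained in 0.636 ± 0.020 and 0.651 ± 0.010 in hypoxia with siARNT and siControl and in 0.553 ± 0.048 and 0.548 ± 0.013 in normoxia (SD, n = 3), higher in hypoxia without overlap and overlapping between the siRNAs. It contains a 155-nt exon (chr20:34327315-34327469), whose reads add to its coverage. 

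A shift of 18 nt in a 3′ splice site (chr20:34297179-34297196) had a shorter-exon share of 0.728 ± 0.045 in hypoxia siControl and 0.571 ± 0.075 in hypoxia siARNT, without overlap, and overlapped in the 3 other comparisons. That event had a mean of 87.6 junction reads. A better covered event of the same site (mean 669 junction reads) is given after its values were seen. Its means were 0.476 and 0.487 in normoxia siControl and siARNT, and 0.470 and 0.452 in hypoxia siControl and siARNT. There the siRNA groups overlapped at either oxygen level, and hypoxia was lower without overlap with siARNT alone. The most covered event of RBM39, a 66-nt exon (chr20:34317384-34317449, mean 2413 junction reads), was included in shares of 0.939 to 0.971 over the 12 samples. Its means were 0.967 and 0.961 in normoxia siControl and siARNT, and 0.950 and 0.942 in hypoxia siControl and siARNT. This small difference by oxygen was without overlap with either siRNA. The siRNA groups overlapped in normoxia, and in hypoxia siARNT was lower without overlap. A block of 3 exons (first at chr20:34298205-34298342) had group means from 0.870 to 0.956 with overlapping samples. A 46-nt exon (chr20:34317239-34317284) owed its wide range to PSI values of 1 in single libraries beside 0.319 to 0.438 in the others. Gene counts of RBM39 were 437, 404 and 430 CPM in normoxia siControl, 393, 333 and 391 CPM in normoxia siARNT, 506, 479 and 490 CPM in hypoxia siControl, and 430, 399 and 363 CPM in hypoxia siARNT. Hypoxia siControl was above both normoxia siControl and hypoxia siARNT without overlap, by log2 changes of 0.21 (SE 0.08) for hypoxia and -0.31 (SE 0.08) for siARNT. The change with siARNT in normoxia was -0.19 (SE 0.08) and -0.05 with gene GC content corrected for.

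TIAL1 (ENSG00000151923.13) differed by oxygen in a 96-nt intron with either siRNA, and in the neighbouring intron with siControl alone. Its stop-carrying exon differed by oxygen with either siRNA by 1 of 2 measures, and with siARNT alone by the other. The 96-nt intron shown above (chr10:121336263-121336358) was retained in shares of 0.692, 0.688 and 0.706 in normoxia siControl, 0.735, 0.714 and 0.729 in normoxia siARNT, 0.835, 0.859 and 0.834 in hypoxia siControl, and 0.835, 0.762 and 0.771 in hypoxia siARNT. All hypoxia samples lay above all normoxia samples. The log2 change was 1.22 (SE 0.22) in siControl and 0.50 (SE 0.22) in siARNT, where it was 0.30 without library A of hypoxia siARNT.

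The neighbouring TIAL1 intron of 174 nt (chr10:121336418-121336591) had a higher share in hypoxia with siControl, and overlapping shares with siARNT. Its share was 0.570, 0.544 and 0.580 in normoxia siControl and 0.735, 0.777 and 0.657 in hypoxia siControl, but 0.5, 0.507 and 0.666 in normoxia siARNT and 0.508, 0.552 and 0.634 in hypoxia siARNT. The log2 change with hypoxia was 1.02 (SE 0.33) in siControl and 0.03 (SE 0.33) in siARNT, and the difference of these was not tested. A 329-nt event over both introns (chr10:121336263-121336591), the most covered of TIAL1, gave 0.199 ± 0.007, 0.169 ± 0.017, 0.309 ± 0.041 and 0.171 ± 0.030 (SD, n = 3) for the groups in the order used above. That event spans a 59-nt exon and shares its reads with the other 2. Another intron, of 239 nt (chr10:121340051-121340289), had its highest mean in hypoxia siControl as well, 0.868 ± 0.048 against 0.720 ± 0.1 in normoxia siControl.

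The stop-carrying 69-nt exon of TIAL1 (chr10:121340290-121340358) is counted in events with different skipping junctions. In the event that joins it to a 68-nt exon, with 266 skipping reads, it was included less in hypoxia. Its shares there were 0.710, 0.765 and 0.690 in normoxia siControl, 0.778, 0.810 and 0.825 in normoxia siARNT, 0.641, 0.592 and 0.609 in hypoxia siControl, and 0.691, 0.591 and 0.619 in hypoxia siARNT. The hypoxia and normoxia samples did not overlap with either siRNA, and siARNT samples were higher than siControl samples in normoxia. Log2 changes were -0.61 (SE 0.23) and -1.12 (SE 0.27) for hypoxia in siControl and siARNT, and 0.65 (SE 0.25) and 0.14 (SE 0.25) for siARNT in normoxia and hypoxia. Without library A of hypoxia siARNT, the second of these became -1.36 and the last -0.10. Against the main skipping junction, with 5381 reads, the inclusion of the same exon was lower throughout, at 0.088, 0.057 and 0.095 in hypoxia siARNT, 0.116, 0.081 and 0.082 in hypoxia siControl, 0.112, 0.114 and 0.106 in normoxia siARNT, and 0.102, 0.083 and 0.110 in normoxia siControl. There hypoxia and normoxia overlapped with siControl (log2 change -0.05, SE 0.20), and with siARNT hypoxia was lower without overlap (-0.53, SE 0.21).

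The 68-nt exon (chr10:121339983-121340050) reached a PSI of 1 in 3 libraries in the event named for its range, which had only 69 skipping reads over all 12, and its groups overlapped in every comparison. Against the junction with 5381 reads its shares were 0.097, 0.119 and 0.156 in hypoxia siARNT, 0.161, 0.179 and 0.174 in hypoxia siControl, 0.124, 0.109 and 0.102 in normoxia siARNT, and 0.156, 0.153 and 0.144 in normoxia siControl. By this measure, given after its values were seen, siARNT samples lay below siControl samples at both oxygen levels, with log2 changes of -0.46 (SE 0.15) in normoxia and -0.63 (SE 0.16) in hypoxia.

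TIAL1 gene counts were 167, 156 and 166 CPM in normoxia siControl, 147, 120 and 142 CPM in normoxia siARNT, 183, 168 and 170 CPM in hypoxia siControl, and 167, 148 and 132 CPM in hypoxia siARNT. At each oxygen level the siARNT samples lay below the siControl samples. The log2 change with siARNT was -0.26 (SE 0.09) in normoxia, and -0.11 after the GC correction, and -0.22 (SE 0.09) in hypoxia. Changes with hypoxia were 0.09 in siControl and 0.13 in siARNT, within 1.5 times their SE of 0.09.

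**Figure D2:**
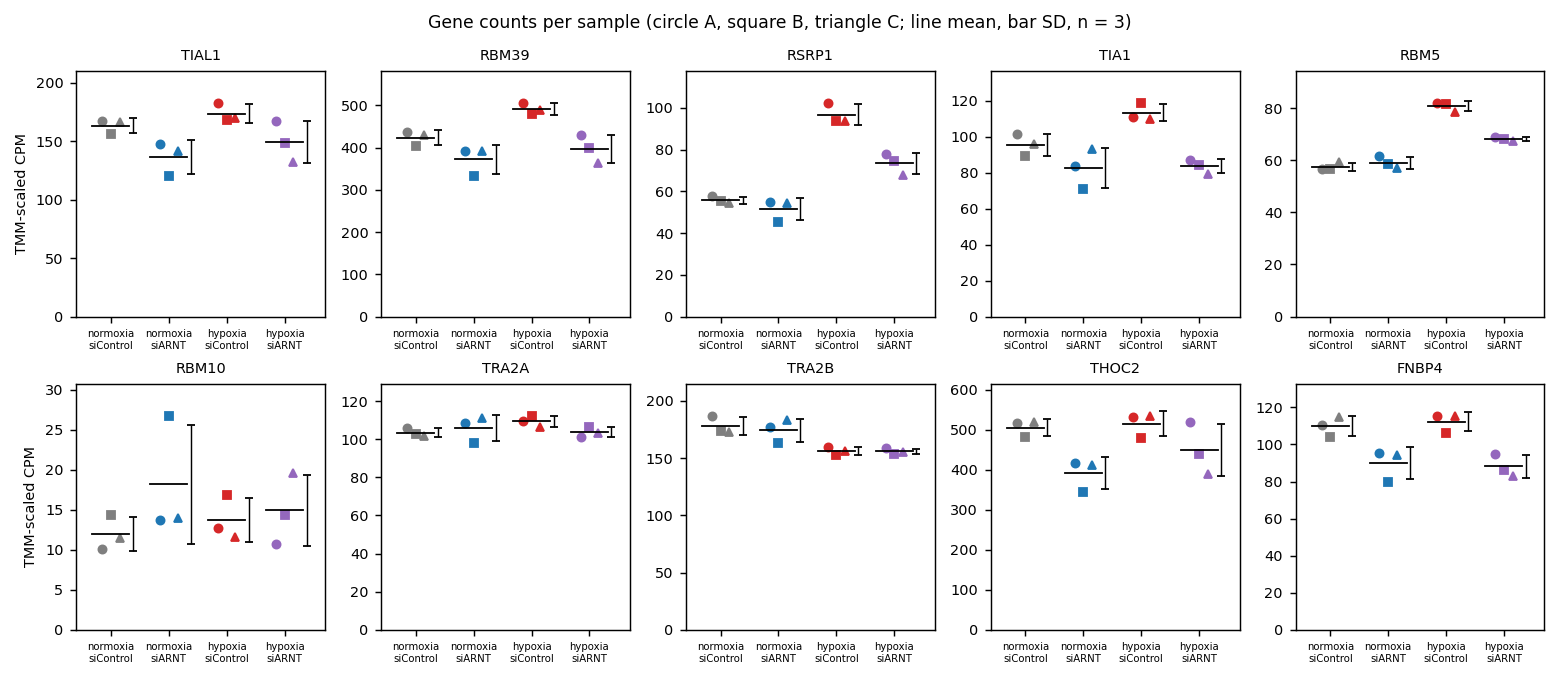
TMM-scaled CPM (y axis, from 0, own scale per gene) of the 10 genes in each of the 12 samples, by group (x axis); points are samples, lines group means and bars the SD (n = 3). RSRP1, RBM5 and TIA1 are highest in hypoxia siControl, FNBP4 is lower in both siARNT groups, and the RBM10 panel shows 1 normoxia siARNT library at 26.7 CPM far above the other 2.

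Of the 7 relatives, RBM5 rose and TRA2B fell with hypoxia in siControl, RBM5 rose with hypoxia in siARNT, FNBP4 and THOC2 fell with siARNT in normoxia, and TIA1, FNBP4 and RBM5 fell with siARNT in hypoxia (edgeR quasi-likelihood test, Benjamini-Hochberg adjusted p under 0.05 over all 16999 genes). The counts called were therefore 2, 1, 2 and 3 of 7. Over all tested genes 25.3, 4.09, 20.2 and 29.1% were called in these comparisons, so that 7 genes called at those shares would give similar counts. Groups that do not overlap in CPM were common too: with hypoxia in siControl all 3 samples were higher in 21.5% and lower in 25.3% of all genes, with hypoxia in siARNT in 11.5% and 10.7%, and they were lower in 23.3% with siARNT in normoxia and in 20.2% with siARNT in hypoxia. The hypoxia change differed between siARNT and siControl (the interaction) in 1 of 7, RBM5, against 4.69% of all genes. The median log2 change of the 7 was 0.08, -0.03, -0.03 and -0.20 in the same order, beside 0.02, -0.04, 0.01 and 0.02 over all genes.

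RBM5 (ENSG00000003756.12), a splicing factor known for its action on apoptosis genes, had the clearest change in gene count among the relatives. It was 56.7, 56.5 and 59.2 CPM in normoxia siControl, 61.7, 58.4 and 57.0 CPM in normoxia siARNT, 82.1, 81.6 and 78.6 CPM in hypoxia siControl, and 68.8, 68.2 and 67.5 CPM in hypoxia siARNT. The hypoxia groups stood apart from each other and from both normoxia groups, with siARNT between. Hypoxia raised it by a log2 change of 0.49 in siControl (SE 0.05, edgeR adjusted p 4.36e-05) and 0.21 in siARNT (SE 0.05, edgeR adjusted p 0.045), and the change with siARNT in hypoxia was -0.25 (SE 0.05, edgeR adjusted p 0.0035). The hypoxia change was 0.28 lower in siARNT than in siControl (log2 difference -0.28, edgeR adjusted p 0.0465). These fits do not pair the samples. With the transfected well as a block, the hypoxia change in siARNT and this difference were not called (edgeR adjusted p 0.118 and 0.123). Nor were they with the letters as a block (edgeR adjusted p 0.0506 and 0.0548). Leaving out any 1 of the 6 siARNT libraries ended the call of the hypoxia change in siARNT (edgeR adjusted p 0.0709 to 0.139), and leaving out any 1 of the 12 ended that of the difference (edgeR adjusted p 0.0553 to 0.161). RBM5 shares its locus with RBM6 on the same strand and with the antisense genes RBM5-AS1 and SEMA3F-AS1.

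Introns of RBM5 on both sides of a 74-nt exon were retained most in hypoxia siControl. The 480-nt intron before it (chr3:50137485-50137964) had retained shares of 0.4, 0.335 and 0.443 in normoxia siControl, 0.387, 0.318 and 0.437 in normoxia siARNT, 0.644, 0.588 and 0.585 in hypoxia siControl, and 0.499, 0.511 and 0.381 in hypoxia siARNT. Only hypoxia siControl stood clear of the other groups. Its log2 change of 1.22 (SE 0.28) with hypoxia did not pass the test (limma adjusted p 0.222). The 2477-nt intron after the exon (chr3:50138039-50140515) had means of 0.273 ± 0.043, 0.235 ± 0.007, 0.426 ± 0.057 and 0.313 ± 0.021 (SD, n = 3), with a change of 0.97 (SE 0.22, limma adjusted p 0.222). The most covered event, a 161-nt exon (chr3:50142982-50143142), was included in shares of 0.959 to 0.992.

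RBM10 (ENSG00000182872.11), the X-linked paralog of RBM5, was the least certain gene. It had 10.2, 14.4 and 11.5 CPM in normoxia siControl, 13.8, 26.7 and 14.0 CPM in normoxia siARNT, 12.7, 16.8 and 11.6 CPM in hypoxia siControl, and 10.8, 14.3 and 19.6 CPM in hypoxia siARNT. The highest value of each group came from 1 of the 4 libraries that departed together. The log2 change for siARNT in normoxia was 0.60 (SE 0.29, edgeR adjusted p 0.143), and 0.20 without library B of normoxia siARNT. With the letters as a block in a fit that left out the hypoxia siARNT group, chosen after seeing the data, it was 0.55 (edgeR adjusted p 0.00269). The letter block over all samples gave 0.56 (edgeR adjusted p 0.0768), and the GC correction 0.10 (edgeR adjusted p 0.423). RBM10 overlaps NDUFB11 on the opposite strand.

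TIA1 (ENSG00000116001.11), the paralog of TIAL1, was highest in hypoxia siControl and fell with siARNT in hypoxia. It had 101, 89.2 and 95.6 CPM in normoxia siControl, 83.8, 70.6 and 93.0 CPM in normoxia siARNT, 111, 119 and 110 CPM in hypoxia siControl, and 87.1, 84.5 and 79.3 CPM in hypoxia siARNT. Hypoxia siControl lay above all other samples. The log2 change was -0.44 for siARNT in hypoxia (SE 0.09, edgeR adjusted p 0.00349) and -0.21 in normoxia (not called). Hypoxia in siControl gave 0.25 (SE 0.09, edgeR adjusted p 0.0667). This change passed with the letters as a block in the fit without hypoxia siARNT, chosen after seeing the data (0.25, edgeR adjusted p 0.0285). It also passed without a filter on low counts, with only the samples compared and with the GC correction (edgeR adjusted p 0.0486, 0.0144 and 0.000228). It did not pass with total count scaling, or with the letters or the transfected well as a block over all samples (edgeR adjusted p 0.0892, 0.0593 and 0.101). Nor did it pass by DESeq2 (adjusted p 0.0719) or without any 1 library of either group (edgeR adjusted p 0.0772 to 0.211).

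The stop-carrying 66-nt exon of TIA1 (chr2:70452460-70452525), the counterpart of the TIAL1 exon, was included in shares of 0.564, 0.546 and 0.522 in normoxia siControl, 0.587, 0.638 and 0.612 in normoxia siARNT, 0.628, 0.548 and 0.584 in hypoxia siControl, and 0.568, 0.498 and 0.605 in hypoxia siARNT. Only the normoxia comparison of the siRNAs was free of overlap, with siARNT higher (log2 change 0.36, SE 0.18, edgeR adjusted p 0.617). For hypoxia in siControl the log2 change was 0.28 with a 95% interval from -0.07 to 0.63, while the TIAL1 exon had -0.61 and -0.05 by its 2 measures. A pair of TIA1 exons of 119 and 33 nt (first at chr2:70455476-70455594) was included in shares of 0.443, 0.489 and 0.412 in normoxia siControl, 0.365, 0.533 and 0.339 in normoxia siARNT, 0.472, 0.547 and 0.368 in hypoxia siControl, and 0.233, 0.224 and 0.268 in hypoxia siARNT. All hypoxia siARNT samples were below all 9 others. The log2 change for siARNT in hypoxia was -1.38 (SE 0.31, edgeR adjusted p 0.17).

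Skipping reads of that pair are also counted in a choice of 5′ splice site over 205 nt (chr2:70456191-70456395). Its shorter-exon share was 0.736, 0.688 and 0.714 in hypoxia siARNT, 0.509, 0.509 and 0.636 in hypoxia siControl, 0.6, 0.426 and 0.714 in normoxia siARNT, and 0.535, 0.5 and 0.561 in normoxia siControl. Only siARNT in hypoxia was without overlap, and its log2 change of 0.99 (SE 0.37) did not pass the test (edgeR adjusted p 0.617). The 172-nt intron next to that pair (chr2:70456224-70456395) was retained in 0.314 ± 0.016 in normoxia siControl and 0.419 ± 0.056 in hypoxia siControl (SD, n = 3), without overlap (limma adjusted p 0.403). In the most covered event, a 5′ splice site choice of 133 nt (chr2:70443885-70444017), the shorter-exon share ran from 0.611 to 0.739 and was lower in hypoxia without overlap with either siRNA (log2 changes -0.37 and -0.35, edgeR adjusted p 0.752 and 0.989).

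TRA2B (ENSG00000136527.13) fell with hypoxia in siControl, and TRA2A (ENSG00000164548.6) did not pass the test in any comparison. TRA2B had 187, 174 and 173 CPM in normoxia siControl, 177, 164 and 183 CPM in normoxia siARNT, 160, 152 and 156 CPM in hypoxia siControl, and 158, 154 and 156 CPM in hypoxia siARNT. All hypoxia samples lay below all normoxia samples. The log2 change was -0.19 in siControl (SE 0.06, edgeR adjusted p 0.0291) and -0.16 in siARNT (SE 0.06, edgeR adjusted p 0.128). Leaving out any 1 of the 6 libraries ended the call in siControl (edgeR adjusted p 0.0546 to 0.188), and the GC correction gave -0.12 (edgeR adjusted p 0.0675). TRA2A stayed between 98.0 and 112 CPM in all 12 samples, with log2 changes between -0.08 and 0.08 in the 4 comparisons between groups and 95% intervals that all lay between -0.19 and 0.19.

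The 276-nt poison exon of TRA2B (chr3:185649365-185649640) was included in shares of 0.374, 0.198 and 0.351 in normoxia siControl, 0.253, 0.166 and 0.227 in normoxia siARNT, 0.261, 0.216 and 0.269 in hypoxia siControl, and 0.198, 0.206 and 0.131 in hypoxia siARNT. The groups overlapped except for siARNT in hypoxia, where all siARNT samples were lower. Log2 changes with siARNT were -0.73 (SE 0.32) in normoxia and -0.63 (SE 0.42) in hypoxia, with edgeR adjusted p 0.553 and 0.866. Single libraries moved both: the change in normoxia was -0.45 without library A and -1.12 without library B of normoxia siControl and -0.44 without library B of normoxia siARNT, and that in hypoxia was -0.37 without library C of hypoxia siARNT. The 4842-nt intron behind the exon (chr3:185644523-185649364) was retained in 0.511 ± 0.021, 0.441 ± 0.057, 0.636 ± 0.043 and 0.579 ± 0.026 (SD, n = 3), higher in hypoxia without overlap with either siRNA (log2 changes 0.73 and 0.78, limma adjusted p 0.337 and 0.492).

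The 301-nt exon of TRA2A (chr7:23561751-23562051), which also starts with gttaatgtt, was rarer. Its share was 0.146, 0.158 and 0.142 in normoxia siControl, 0.108, 0.122 and 0.135 in normoxia siARNT, 0.183, 0.15 and 0.113 in hypoxia siControl, and 0.072, 0.093 and 0.106 in hypoxia siARNT. At each oxygen level all siARNT samples were below all siControl samples, as with the RBM39 exons (log2 changes -0.36 and -0.86, edgeR adjusted p 0.669 and 0.340). A 312-nt form of the exon, which shares its skipping reads, gave -0.41 and -0.48 (edgeR adjusted p 0.447 and 0.593). The 280-nt intron behind it (chr7:23561460-23561739) was retained in 0.770 ± 0.026 in hypoxia siARNT against 0.850 ± 0.017 in hypoxia siControl (SD, n = 3; limma adjusted p 0.255). The most covered exons of TRA2A (189 nt, chr7:23552513-23552701) and TRA2B (60 nt, chr3:185637225-185637284) were included in shares of 0.920 or more in all samples.

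THOC2 (ENSG00000125676.15) fell with siARNT in normoxia. It had 516, 481 and 518 CPM in normoxia siControl, 418, 344 and 412 CPM in normoxia siARNT, 531, 478 and 534 CPM in hypoxia siControl, and 518, 440 and 389 CPM in hypoxia siARNT. The siRNA groups were apart in normoxia and overlapped in hypoxia. Log2 changes were -0.37 (SE 0.10, edgeR adjusted p 0.0295) and -0.20 (SE 0.10, edgeR adjusted p 0.185). The call in normoxia ended without library A, B or C of normoxia siControl (edgeR adjusted p 0.0868, 0.0505 and 0.0906) or library B of normoxia siARNT (0.0887), and the GC correction moved the change to -0.22.

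The 77-nt intron of THOC2 shown above (chrX:122757561-122757637) was retained more in hypoxia with either siRNA. Its share was 0.578, 0.647 and 0.603 in normoxia siControl, 0.644, 0.606 and 0.568 in normoxia siARNT, 0.834, 0.745 and 0.764 in hypoxia siControl, and 0.743, 0.776 and 0.784 in hypoxia siARNT. All 6 hypoxia samples lay above all 6 normoxia samples, and the siRNA groups overlapped. The log2 changes of 1.19 and 1.07 (SE 0.24 each) did not pass (limma adjusted p 0.219 and 0.422). In a choice of 3′ splice site 81 nt apart (chrX:122753288-122753368) the shorter-exon share was 0.901 ± 0.010 and 0.852 ± 0.009 in normoxia siControl and siARNT and 0.888 ± 0.011 and 0.830 ± 0.024 in hypoxia (SD, n = 3), lower with siARNT without overlap (log2 changes -0.62 and -0.63, edgeR adjusted p 0.162 and 0.257). The most covered event, a block of 5 exons (first at chrX:122736069-122737599), had shares of 0.922 to 0.956.

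FNBP4 (ENSG00000109920.8) fell with siARNT at both oxygen levels. It had 110, 104 and 115 CPM in normoxia siControl, 95.3, 79.8 and 94.6 CPM in normoxia siARNT, 115, 106 and 115 CPM in hypoxia siControl, and 95, 86.3 and 83.2 CPM in hypoxia siARNT. All 6 siARNT samples lay below all 6 siControl samples. The log2 change was -0.29 in normoxia (SE 0.08, edgeR adjusted p 0.0267) and -0.35 in hypoxia (SE 0.08, edgeR adjusted p 0.00609). The call in normoxia ended without library A or C of normoxia siControl (edgeR adjusted p 0.0822 and 0.105) or library B of normoxia siARNT (0.0731).

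The 958-nt intron of FNBP4 (chr11:47746331-47747288) came closest to a call among all events of the relatives. It was retained in shares of 0.472, 0.439 and 0.389 in normoxia siControl, 0.560, 0.512 and 0.592 in normoxia siARNT, 0.651, 0.644 and 0.671 in hypoxia siControl, and 0.611, 0.664 and 0.702 in hypoxia siARNT. Normoxia siControl was below all 9 other samples. The log2 change for hypoxia in siControl was 1.28 (SE 0.22, limma adjusted p 0.0899). It passed when each form had to have at least 120 counts (limma adjusted p 0.0180), a setting chosen after seeing the data, and with edgeR on rounded coverage (adjusted p 0.0274). It did not pass in any other setting run, or without any 1 library of either group (limma adjusted p up to 0.563). Next to the intron, a 100-nt exon (chr11:47747289-47747388) was included in 0.411 ± 0.012, 0.342 ± 0.066, 0.302 ± 0.021 and 0.293 ± 0.066 (SD, n = 3, edgeR adjusted p 0.574 for hypoxia in siControl). Splice junction reads of the intron are also counted as inclusion of this exon, so the 2 events are not independent. The most covered exon (341 nt, chr11:47744528-47744868) had shares of 0.888 to 0.961.

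**Figure D3:**
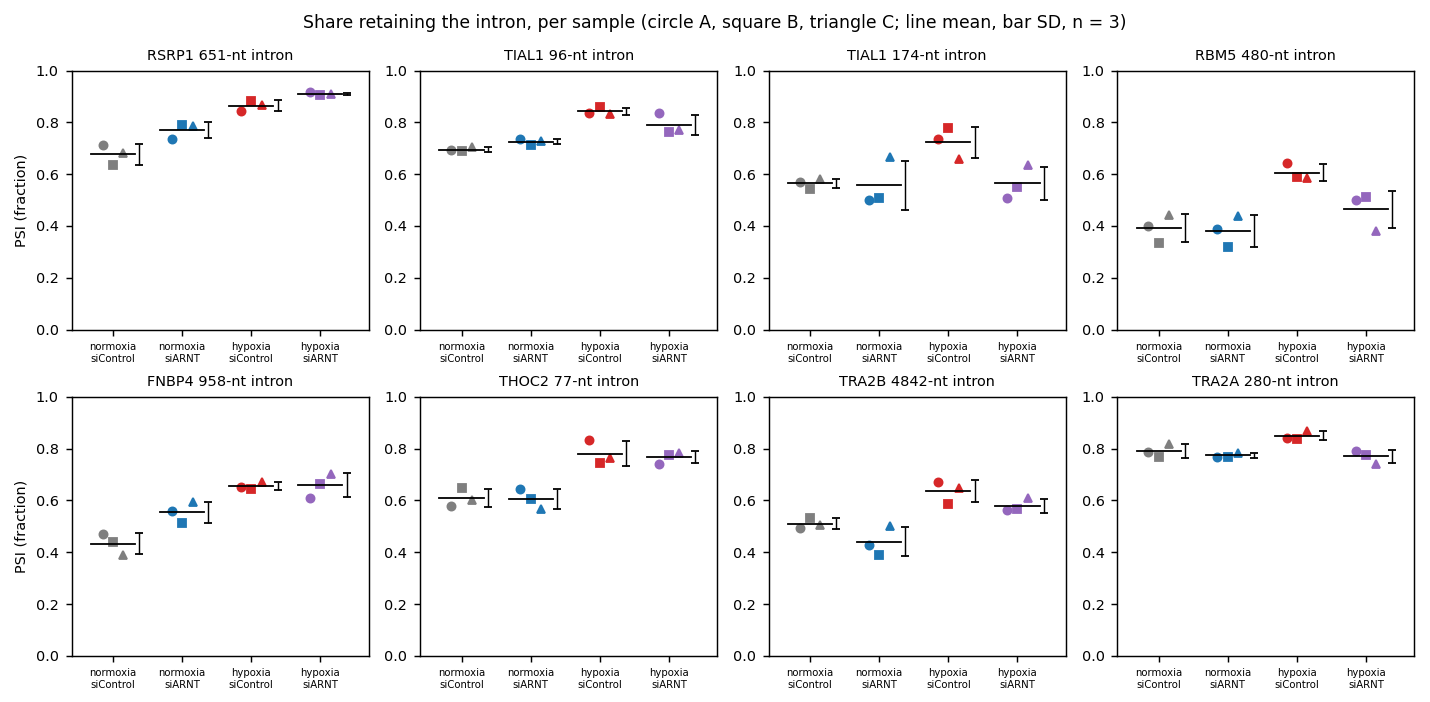
Retained share of the intron (PSI from intron coverage and junction reads, y axis from 0 to 1) for 8 introns in each of the 12 samples, by group (x axis); points are samples, lines group means and bars the SD (n = 3). Retention is highest in hypoxia siControl for the RBM5, TRA2A, TRA2B and both TIAL1 introns, and in THOC2 both hypoxia groups lie above both normoxia groups.

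Over all 90 tested events of the relatives, none was called in any of the 5 comparisons by edgeR (75 junction events) or limma (15 retained introns). Among all 37717 tested events 0.0981% were called for hypoxia in siControl, 0.0186% for hypoxia in siARNT, 0.294% for siARNT in normoxia, 0.217% for siARNT in hypoxia and 0.0106% for the interaction, so that few calls could be looked for in 90 events. At an unadjusted p under 0.05 there were 13, 8, 8, 18 and 3 events, which is 14.4, 8.89, 8.89, 20 and 3.33% of the 90, beside 6.52, 5.03, 8.99, 7.06 and 4.61% of all events. Of the 15 retained introns 7, 5, 2, 6 and 0 were among them, and of the 75 junction events 6, 3, 6, 12 and 3. Retained introns were 3624 of all 37717 events, so the 2 sets differ in make-up. With limma in place of edgeR for the junction events 0 were called as well, with 2, 6, 5, 11 and 4 at an unadjusted p under 0.05, and edgeR on rounded intron coverage called the FNBP4 intron for hypoxia in siControl. Several of these events overlap and share reads. The median range of the group means was 0.045 in PSI for the relatives and 0.034 for all events.

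Retained introns of the relatives had higher coverage for their junction reads with hypoxia in siControl. The log2 ratio was above 0 in 14 of 15 introns, beside 58.1% of all 3624 tested introns, and its median was 0.65 beside 0.10. The 15 are not separate units: FNBP4 gave 5 of them and RBM5 gave 3, and some of these overlap. In 7 of the 15 every hypoxia sample was above every normoxia sample, which held for 12.4% of all introns. The share of reads not assigned to genes was also higher in hypoxia siControl, as given above, and its part was not tested. With hypoxia in siARNT 11 of 15 were above 0 with a median of 0.32 (all introns 55.5% and 0.07), and 4 were without overlap (7.89% of all introns). With siARNT in hypoxia 3 of 15 were above 0 with a median of -0.34 (all introns 38.7% and -0.17), and in 5 every siARNT sample was lower (10.7% of all introns). With siARNT in normoxia 6 of 15 were above 0 and the median was -0.08, close to the -0.09 of all introns. The 20 introns of TIAL1, RBM39 and RSRP1, which include those that led to the choice of these genes, had 18 (hypoxia in siControl), 16 (hypoxia in siARNT), 10 (siARNT, normoxia) and 6 (siARNT, hypoxia) above 0 and medians of 0.60, 0.50, -0.01 and -0.42 in that order.

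**Figure D4:**
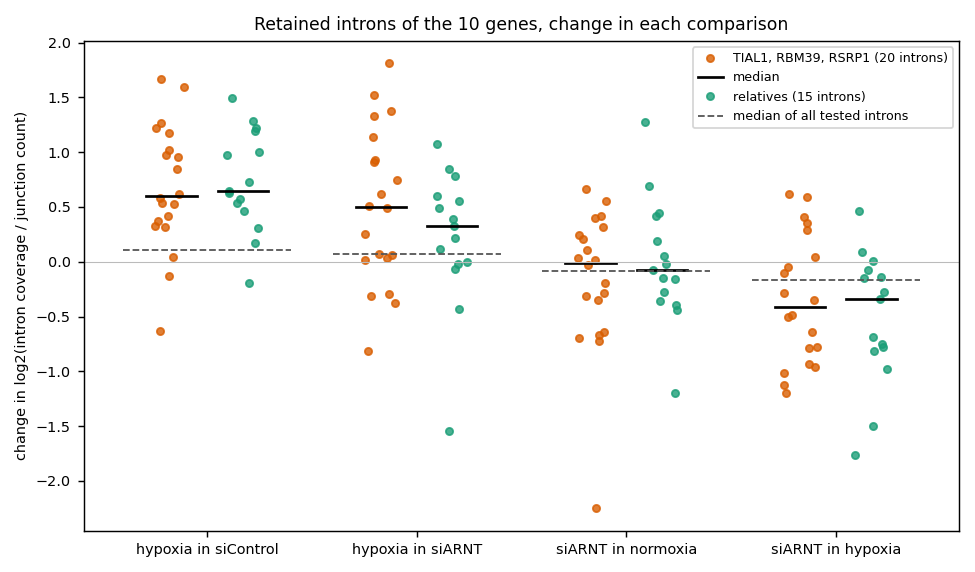
Change in log2(intron coverage / junction count) (y axis) of the 35 tested introns of the 10 genes in the 4 comparisons between groups (x axis); each point is an intron, black lines are medians of the 2 sets of genes and dashed lines the median of all 3624 tested introns. For hypoxia in siControl the medians are 0.60 and 0.65 beside 0.10 for all introns, and for siARNT in normoxia all medians lie near 0.

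Other genes of the same pathways were counted in the lists below, by how many passed the edgeR test at an adjusted p under 0.05. Over all genes 10.4% were called higher and 14.9% lower for hypoxia in siControl, 9.42% and 10.8% for siARNT in normoxia, and 14.4% and 14.7% for siARNT in hypoxia. Of 14 genes in a list of U2AF-like, G-patch and other RBM or splice site proteins, 0 were called with hypoxia in either siRNA. With siARNT in normoxia SF1, which binds the branch point (0.38), SUGP2 (0.32) and U2AF1 (0.24) rose and RBM17 (-0.19) fell, as log2 changes. With siARNT in hypoxia SF1 (0.46), SUGP2 (0.34), U2AF1 (0.18) and RBM14 (0.45) rose and RBM41 (-0.32) fell.

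Of 14 partners of the TIA family and stress granule genes, 4 fell with hypoxia in siControl and 0 rose, beside a list median of -0.11. These were G3BP1, a core protein of stress granules (-0.38), ELAVL1 (-0.27), USP10 (-0.24) and SNRPC, the U1 protein that TIA1 contacts (-0.41). With siARNT in normoxia 3 rose and 3 fell, among them FMR1 (0.65) and its relative FXR1 (-0.78). With siARNT in hypoxia 5 rose and 2 fell, with FMR1 at 0.75, ELAVL1 at 0.47, UBAP2L at 0.43 and SNRPC at 0.37 among the rises, and FXR1 at -0.77 and G3BP2 at -0.27 as the falls.

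Of 16 genes of the THO complex and mRNA export, 5 fell with hypoxia in siControl and 0 rose. They were THOC3 (-0.34), THOC5 (-0.39) and THOC7 (-0.34) of the complex that THOC2 holds together, and the export factors FYTTD1 (-0.31) and NXT1 (-0.61), while THOC2 itself had a log2 change of 0.03. THOC7 fell with siARNT in normoxia (-0.43), and with siARNT in hypoxia NXT1 (0.62) and MCM3AP (0.25) rose and the helicase gene DDX39B fell (-0.22). Among WW-domain partners of the spliceosome, WBP11 fell with hypoxia in siControl (-0.34), WBP4 fell with siARNT in normoxia (-0.37), and WBP11 (0.23) and PRPF40B (0.67) rose with siARNT in hypoxia. Of 10 nonsense-mediated decay genes, SMG6 rose (0.36) and SMG8 fell (-0.35) with hypoxia in siControl. SMG8 was the 1 gene of that list called in each of the other 3 comparisons (-0.27, -0.30 and -0.22). For hypoxia in siARNT it was the only gene called in any of the 5 lists, where 2.21% of all genes were called higher and 1.89% lower, and no list gene was called for the interaction (4.69% of all genes).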

How the data were processed

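The deposited gene tables hold raw read counts by gene ID. Per the submitters' processing notes, Trimmomatic, STAR 2.4.2a and GRCh38.p10 were used, and the counting settings are not given in the sources used here. Lines that name no gene (22.71 to 25.2% of a library) were left out. The deposited event files give junction read counts, mean intron coverage and PSI, a fraction, per the file headers; their caller is not given in the sources used here. PSI recomputed from the deposited counts fell within 0.01 of the deposited fraction for 100% of values.

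Genes were fitted with edgeR 4.0.16 (R 4.3.3; TMM, filterByExpr, robust quasi-likelihood, 1 mean per group over 12 samples). Junction events (34093) were fitted with edgeR as inclusion against exclusion counts with quasi-Poisson variance, chosen on simulated data, where a negative binomial fit missed known changes. Retained introns (3624) were fitted with limma 3.58.1 (trend) on log2((coverage + 1)/(junction count + 1)). Events needed a mean of 20 counts and 24 counts of each form over the samples. Adjustment (Benjamini-Hochberg) was over all features of each fit. CPM are TMM-scaled. DESeq2 1.42.0 and other settings were tried as alternatives.

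The members, lists and tests were chosen with earlier results of these data known. The values of 1 gene of the WW-domain list are not reported here. For TIAL1, RBM39 and RSRP1 the 5 tested events with the widest range of group means were named, passing over any that shares an end with one already named, together with the most covered event. Among events that were not passed over, the last named and next ranges were 0.089 and 0.083 in TIAL1 and 0.086 and 0.078 in RBM39. Events passed over in RBM39 had ranges up to 0.164 and in RSRP1 up to 0.408. Those described were chosen after their values were seen. For relatives, called events (up to 4) and the most covered event were named, and the other events of the relatives were chosen after their values were seen.

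Same-letter samples of normoxia siControl, normoxia siARNT and hypoxia siControl deviated together (r 0.39 to 0.88 over 9855 genes whose mean CPM reached 5). Their letters were taken to pair them, although the closest match was not always the same letter. Normoxia siControl A was closer to normoxia siARNT C than to A (r 0.77 against 0.70), and C closer to A than to C (0.50 against 0.39). Normoxia siARNT A was closer to hypoxia siControl C than to A (0.73 against 0.63). The labels describe wells divided after transfection. Positions in the event files matched GRCh38 for 0 member exons, and 178 of 251 matched a GENCODE 29 layout at a constant shift.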

Additional observations from a re-analysis of the deposited data

Results flagged for a closer look

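The hypoxia change in the gene count of RBM5 was smaller in siARNT than in siControl, with a log2 difference of -0.28 (edgeR adjusted p 0.0465). The difference was not called with the transfected well as a block (edgeR adjusted p 0.123). With either siRNA every hypoxia sample lay above every normoxia sample. A 62-nt exon of TIAL1 (chr10:121352964-121353025) differed in opposite directions. Its inclusion was 0.332, 0.342 and 0.309 in normoxia siControl, 0.279, 0.279 and 0.231 in normoxia siARNT, 0.308, 0.274 and 0.246 in hypoxia siControl, and 0.344, 0.316 and 0.341 in hypoxia siARNT. With siControl every hypoxia sample lay below every normoxia sample, and with siARNT every hypoxia sample lay above. Likewise siARNT samples lay below siControl samples in normoxia and above them in hypoxia. The hypoxia change in PSI was 0.122 higher in siARNT than in siControl, and this difference was not tested. The exon was picked for these opposite directions among the 72 tested events of TIAL1, RBM39 and RSRP1. Over all junction events, all 3 samples were lower in 6.76% for hypoxia in siControl and in 8.64% for siARNT in normoxia. The share of all events that differ in opposite directions was not determined.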

How the results depend on the processing

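No called result reversed its direction under any setting run. The log2 change of the TIAL1 69-nt exon for siARNT in hypoxia, 0.14, was -0.10 without library A of hypoxia siARNT. The counts that moved by more than 1.5 times were those of few calls. For hypoxia in siControl 2 relatives were called by gene count, and 1 by DESeq2. For hypoxia in siARNT 1 was called, 0 without a filter on low counts, 0 with only the samples compared, and 3 with the GC correction, with or without the replicate block. For siARNT in normoxia 2 were called, 4 with the GC correction, with or without the block, and 1 with only the samples compared. For the interaction 1 was called, 0 with total count scaling, 0 without the filter, and 2 with the GC correction, with or without the block. With siARNT in hypoxia 3 or 4 were called in all settings. With the replicate letter as a block, or the transfected well as a block, 0 were called for hypoxia in siARNT and 0 for the interaction. In the block fit of the 9 samples without hypoxia siARNT, chosen after seeing the data, 3 were called both for hypoxia in siControl and for siARNT in normoxia. Leaving out 1 library gave 1 to 1, 0 to 0, 0 to 3, 3 to 4 and 0 to 0 calls in the 5 comparisons. No event of the relatives was called, except 1 for hypoxia in siControl with at least 120 counts of each form, 1 with edgeR on rounded coverage, 1 for siARNT in hypoxia with the replicate block (letter), the TIA1 exon pair at an edgeR adjusted p of 0.0334, and 0 to 1 for siARNT in normoxia on leaving out 1 library. Letters B and C of hypoxia siARNT did not pair with those of the other groups (r from -0.85 to -0.10). The A libraries of the other groups were closest to library A of hypoxia siARNT (r 0.69 to 0.91). The block changed no other event call. The causes were not tested. Depth limits the events: 90 of the 112 of the relatives reached the minimum on counts, and 0 of 2 in RBM10.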

Other observations

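A thinly covered 5′ splice site choice of THOC2 (longer exon at chrX:122754039-122754189, mean 35.1 junction reads) had a PSI of 0.612, 0.653 and 0.667 in normoxia siControl, 0.771, 0.774 and 1 in normoxia siARNT, 0.719, 1 and 0.675 in hypoxia siControl, and 0.667, 0.576 and 0.739 in hypoxia siARNT. The event was chosen after its values were seen, and the share of all events with such opposite changes was not determined. With siControl every hypoxia sample lay above every normoxia sample, and with siARNT every one lay below. The log2 difference of these changes was -2.12 (SE 1.02) and did not pass the test (edgeR adjusted p 1).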
